A study of Mus musculus with 6 samples.

Results

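The transcripts described here encode the carriers and enzymes with which a nerve takes up glucose, phosphorylates it, converts pyruvate and lactate into each other and moves lactate between cells. They are the 10 genes Slc2a1, Slc2a3, Slc2a4, Slc16a1, Slc16a3, Slc16a7, Ldha, Ldhb, Hk1 and Hk2, chosen by symbol from 39174 gene identifiers. RNA sequencing was available for whole sciatic nerves of 3 wild-type mice (nerves 2, 4 and 5) and 3 Plekhg5-deficient mice (mutant nerves 2, 3 and 5), all 12 months old. The mutant mice are labelled Plekhg5-/- and lack Plekhg5, an activator of NF-κB, and no Cre line, inducing agent or other treatment is named for either group. The sources used here do not say how the mutant allele was made, nor the strain background or sex of the animals. Each table gave FPKM, the fragments per kilobase of transcript, set against the total of mapped fragments, so that levels of different genes can be set side by side per length.

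Myelinated axons are long and are covered by Schwann cells along most of their surface. Glucose enters the nerve through facilitative carriers of the Slc2a family in the endothelium and perineurium, the barriers around the nerve, and hexokinases trap it inside cells as glucose 6-phosphate. Glial cells can turn the resulting pyruvate into lactate, which leaves and enters cells together with a proton through monocarboxylate carriers of the Slc16a family and can be turned back into pyruvate and burnt in the axon. Skeletal muscle and fat, which lie next to the nerve, use their own members of the same families.

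The genotype check came out as labelled. Plekhg5 was at 3.65, 4.13 and 5.26 scaled FPKM in the wild-type nerves 2, 4 and 5 against 0.141, 0.140 and 0.0521 in mutant nerves 2, 3 and 5 (log2 fold change -2.26, adjusted p = 0.0380, limma), where scaled means divided by a factor per library between 0.745 and 1.12. Schwann cell myelin transcripts were abundant in all 6 libraries, with a summed level of 10 markers between 10712 and 19504 FPKM. Mutant nerve 5 stood apart. All 15 of 15 skeletal muscle markers and all 11 erythroid markers in the tables were highest there, haemoglobin made up 16.0% of its FPKM against 0.507% to 2.56% elsewhere, and 8 neutrophil markers summed to 601 FPKM against 85.9 to 132 elsewhere. Wild-type nerve 5 stood apart by lymphocyte transcripts, with 105 FPKM summed over 9 T-cell markers and 132 over 8 B-cell markers, against at most 5.79 and 7.78 in the other 5 nerves. Summed levels of the remaining lists lay between 963 and 6822 FPKM for 11 adipocyte markers, 115 and 239 for 10 endothelial, 152 and 259 for 8 perineurial, 139 and 338 for 10 macrophage, 70.3 and 194 for 10 repair and non-myelinating Schwann cell and 14.2 and 1697 for 8 neuronal markers. No marker was at 0 in all libraries.

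No gene of the 10 passed the test between genotypes. All 10 were above the minimum level and were fitted with limma among 21285 genes, of which 8 (0.0376%) were called at an adjusted p under 0.05, 0.0282% higher and 0.0094% lower in mutant nerves. Adjusted p-values of the 10 lay between 0.959 and 0.999. Fold changes, given as Plekhg5-deficient minus wild-type on the log2(FPKM + 1) scale, were above 0 for 4 genes and below 0 for 6, with a median of -0.049 beside 0.0065 over all genes tested. Slc16a7 was the single gene at an unadjusted p under 0.05, a limit passed by 5.11% of all genes, and also the single gene whose genotypes did not overlap, as was true of 11.6% of all genes. In whole nerve, fewer cells of a type and less RNA per cell cannot be told apart.

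In wild-type nerve the lactate dehydrogenases stood highest, followed by Slc2a1, the main glucose carrier, and Slc16a1, the main lactate carrier. Mean levels were 182 scaled FPKM for Ldha and 180 for Ldhb, which overlapped, and 96.1 for Slc2a1, which lay below Ldhb in all 6 nerves. Slc16a1 followed at 43.0, below Slc2a1 in all 6 nerves, and overlapped Slc2a4 at 26.4, which in turn overlapped Hk1 at 18.7. Hk2, at 9.59, did not overlap Hk1 among wild-type nerves, but was above it in mutant nerve 5. Slc16a3 at 7.14, Slc16a7 at 3.22 and Slc2a3 at 3.02 closed the order and each overlapped its neighbour.

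**Figure D1:**
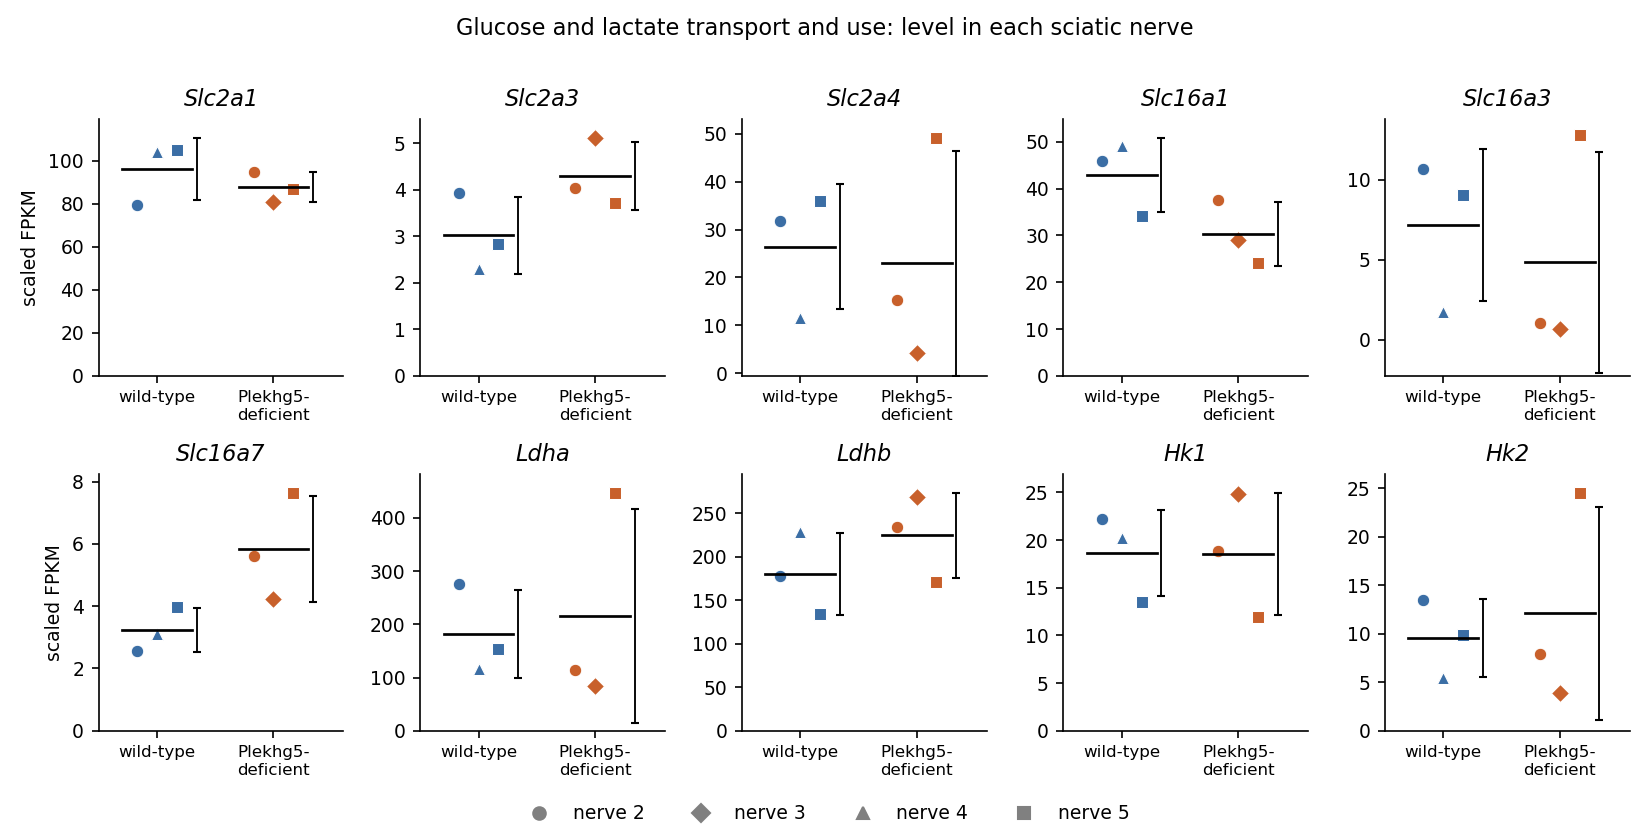
Level of each of the 10 genes in each nerve, in scaled FPKM on a linear axis, one panel per gene; points are nerves (blue wild-type, orange Plekhg5-deficient, shape by nerve number), horizontal lines are means and vertical bars are the SD over 3 nerves. The genotypes overlap in every panel except that of Slc16a7, and mutant nerve 5 is the highest point for Slc2a4, Slc16a3, Slc16a7, Ldha and Hk2.

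Among the glucose carriers, Slc2a1 varied little. Slc2a1 (chromosome 4, 119108711 to 119137330, GRCm38) encodes GLUT1, the carrier of barrier endothelium and perineurium. It was at 79.4, 104 and 105 scaled FPKM in the wild-type nerves 2, 4 and 5 against 94.9, 81.0 and 87.1 in mutant nerves 2, 3 and 5. Wild-type nerve 2 was the lowest of all, so that the genotypes overlapped, and the highest nerve was 1.32 times the lowest. Means were 96.1 ± 14.5 and 87.7 ± 7.01 (SD, n = 3 each), with a log2 fold change of -0.12 (SE 0.19, 95% interval -0.57 to 0.32, adjusted p = 0.980). Its 6 nerves followed nearly the order of the summed perineurial markers, in which only the lowest nerves, wild-type 2 and mutant 3, changed places.

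Slc2a3 (chromosome 6, 122727809 to 122801640) encodes GLUT3, the high-affinity carrier of neurons. It was low, at 3.92, 2.31 and 2.83 scaled FPKM in the wild-type nerves 2, 4 and 5 against 4.04, 5.12 and 3.72 in mutant nerves 2, 3 and 5. The mutant mean was higher, at 4.29 ± 0.730 against 3.02 ± 0.823 (SD, n = 3 each), but wild-type nerve 2 lay above mutant nerve 5. The log2 fold change was 0.41 (SE 0.23, 95% interval -0.13 to 0.95, adjusted p = 0.974). The authors' own 95% intervals for this gene reached up to 55.2% of its value to either side, the widest of any glucose carrier here. Gm4482 lies within the span of Slc2a3 at a mean of 1.20 FPKM, and without a stated strand setting their reads cannot be told apart.

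Slc2a4 (chromosome 11, 69942539 to 69948188) encodes GLUT4, the insulin-responsive carrier of muscle and fat. Wild-type nerves 2, 4 and 5 held 31.8, 11.5 and 36.0 scaled FPKM, and mutant nerves 2, 3 and 5 held 15.3, 4.25 and 49.2. The highest and the lowest of the 6 values were thus both in mutant nerves, 11.6-fold apart. The log2 fold change was -0.61 (SE 0.84, 95% interval -2.61 to 1.40, adjusted p = 0.980). Without mutant nerve 5 it was -1.43, and without mutant nerve 3 it was 0.21, neither with a call. The order of the nerves was that of the summed adipocyte markers and also that of Myh1, a fast myosin heavy chain of muscle.

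Of the monocarboxylate carriers, Slc16a1 and Slc16a3 had a lower mean and Slc16a7 a higher mean in mutant nerves, none with a call. Slc16a1 (chromosome 3, 104638668 to 104658462) encodes MCT1, which in peripheral nerve is found in Schwann and perineurial cells. Its level was 45.8, 49.0 and 34.1 scaled FPKM in the wild-type nerves 2, 4 and 5 against 37.6, 29.0 and 24.1 in mutant nerves 2, 3 and 5. The genotypes overlapped by 1 pair, mutant nerve 2 lying above wild-type nerve 5. With means of 43.0 ± 7.88 and 30.2 ± 6.81 (SD, n = 3 each), the log2 fold change was -0.50 (SE 0.23, 95% interval -1.05 to 0.05, adjusted p = 0.974). Leaving out wild-type nerve 5 gave -0.66, leaving out mutant nerve 5 gave -0.36 and leaving out both gave -0.52.

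Slc16a7 (chromosome 10, 125226464 to 125328963) encodes MCT2, the high-affinity carrier of neurons. It stood at 2.57, 3.12 and 3.97 scaled FPKM in the wild-type nerves 2, 4 and 5 against 5.62, 4.24 and 7.64 in mutant nerves 2, 3 and 5. All 3 mutant nerves were above all 3 wild-type nerves, which held for 5.69% of all genes tested. The margin was narrow from wild-type nerve 5 to mutant nerve 3, whose deposited 95% intervals, scaled in the same way, reached from 3.15 to 4.79 and from 3.64 to 4.84. Means were 3.22 ± 0.707 and 5.84 ± 1.71 (SD, n = 3 each), and the log2 fold change was 0.68 (SE 0.25, 95% interval 0.07 to 1.28, unadjusted p = 0.0332, adjusted p = 0.959, limma). It stayed between 0.50 and 0.85 with any single nerve left out and was 0.62 without both nerves numbered 5. The unadjusted limma p did not hold in every alternative. It was 0.101 without wild-type nerve 2, 0.0800 without wild-type nerve 4, 0.0769 without mutant nerve 2 and 0.0946 without mutant nerve 5. It was 0.0533 without both nerves numbered 5 and 0.0605 with unscaled FPKM. Without wild-type nerve 5 it was 0.0323, and with other pseudocounts 0.0299 and 0.0318. The adjusted limma p was at least 0.268 in every alternative. The summed neuronal markers were lowest in mutant nerve 5, where Slc16a7 was highest.

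Slc16a3 (chromosome 11, 120948480 to 120960868) encodes MCT4, the carrier with which glycolytic muscle fibres release lactate. Levels were 10.6, 1.74 and 9.04 scaled FPKM in the wild-type nerves 2, 4 and 5 against 1.03, 0.673 and 12.8 in mutant nerves 2, 3 and 5. High and low nerves occurred in both genotypes, 19.0-fold apart at most, the widest range of the 10 genes. The deposited intervals for Slc16a3 reached up to 69.9% of its value to either side, the widest of the 10 genes. Means were 7.14 ± 4.75 and 4.83 ± 6.90 (SD, n = 3 each), and the log2 fold change was -0.92 (SE 0.93, 95% interval -3.14 to 1.29, adjusted p = 0.974). Without mutant nerve 5 it was -1.92 and without both nerves numbered 5 it was -1.66, neither with a call.

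The lactate dehydrogenases form tetramers of A and B subunits, the A subunit being typical of glycolytic muscle and the B subunit of heart and other oxidative tissue. Ldha (chromosome 7, 46841475 to 46855627) was at 276, 117 and 153 scaled FPKM in the wild-type nerves 2, 4 and 5 against 115, 84.1 and 448 in mutant nerves 2, 3 and 5. Mutant nerve 5 was the highest of all and the other mutant nerves were the lowest, with means of 182 ± 83.5 in wild-type and 215 ± 202 in mutant nerves (SD, n = 3 each). On the log scale the change was -0.063 (SE 0.66, 95% interval -1.63 to 1.51, adjusted p = 0.999). It was -0.79 without mutant nerve 5 and -0.88 without both nerves numbered 5. Reads of Ldha may be shared with its processed copy Ldha-ps2, listed at 1.54 to 10.3 scaled FPKM. How such reads were assigned was not examined, so the effect on the Ldha level is not known.

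Ldhb (chromosome 6, 142490249 to 142507957) followed another order. It was at 178, 228 and 134 scaled FPKM in the wild-type nerves 2, 4 and 5 against 234, 268 and 171 in mutant nerves 2, 3 and 5. Here mutant nerve 3, the lowest for Ldha, was the highest, and the nerves numbered 5 were the lowest of their genotypes. Means were 180 ± 47.1 and 225 ± 49.1 (SD, n = 3 each), with a log2 fold change of 0.32 (SE 0.28, 95% interval -0.34 to 0.99, adjusted p = 0.974). It was 0.12 without wild-type nerve 5, 0.50 without mutant nerve 5 and 0.30 without both.

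Of the hexokinases, Hk1 is the form of brain and most other tissues, while Hk2 is the insulin-responsive form of muscle and fat. Hk1 (chromosome 10, 62268855 to 62379908) was at 22.2, 20.3 and 13.6 scaled FPKM in the wild-type nerves 2, 4 and 5 against 18.9, 24.8 and 11.97 in mutant nerves 2, 3 and 5. Both genotypes spanned nearly the same range, with means of 18.7 ± 4.53 and 18.6 ± 6.42 (SD, n = 3 each) and a log2 fold change of -0.035 (SE 0.31, 95% interval -0.78 to 0.71, adjusted p = 0.999). It was 0.23 without mutant nerve 5, -0.25 without wild-type nerve 5 and 0.016 without both. The gene 2210417K05Rik lies within the span of Hk1 at a mean of 2.91 FPKM, and without a stated strand setting reads of overlapping genes cannot be told apart.

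Hk2 (chromosome 6, 82725025 to 82774454) was at 13.5, 5.41 and 9.88 scaled FPKM in the wild-type nerves 2, 4 and 5 against 7.91, 3.86 and 24.5 in mutant nerves 2, 3 and 5. Again the highest and the lowest nerve were both Plekhg5-deficient, numbers 5 and 3. The log2 fold change was 0.045 (SE 0.62, 95% interval -1.45 to 1.54, adjusted p = 0.999). It was -0.61 without mutant nerve 5 and -0.57 without both nerves numbered 5.

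Ldha, Slc16a3, Hk2 and Slc2a4 ranked the nerves in or near the order of skeletal muscle transcripts, which adipocyte and erythroid transcripts also came near. The 15 muscle markers summed to 14270, 2250 and 9305 FPKM in the wild-type nerves 2, 4 and 5 against 1988, 238 and 38511 in mutant nerves 2, 3 and 5. Ranked from high to low, this sum gave mutant 5, wild-type 2, wild-type 5, wild-type 4, mutant 2 and mutant 3, and both Ldha and Slc16a3 gave exactly that order. Against the order of the muscle sum, the neighbours wild-type 4 and mutant 2 changed places in Hk2, and in Slc2a4 wild-type 2 and 5 did so as well. Single muscle genes differed in order. Acta1, the actin of skeletal muscle, spanned 65.3 to 11585 scaled FPKM in the order of the sum. Tnnt3, a fast muscle troponin, spanned 49.9 to 9445 in exactly the order of Hk2. Myh1, another of the 15 markers, spanned 1.21 to 102 in exactly the order of Slc2a4. The summed adipocyte markers were also highest in mutant nerve 5, as were 6 of the 11 markers, and lowest in mutant nerve 3. Slc2a4 followed the order of the adipocyte sum exactly, and Hk2 differed from it only in that wild-type 2 and 5 changed places. Of the most abundant adipocyte transcripts, Cfd, a secreted protease, spanned 275 to 1795 scaled FPKM in the order of the sum, whereas Fabp4, a fatty acid binding protein, spanned 375 to 3599.9 in another order. The summed erythroid markers gave the muscle order except that wild-type 2 and 5 changed places. The part of muscle, fat or blood RNA in these levels was not tested.

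**Figure D2:**
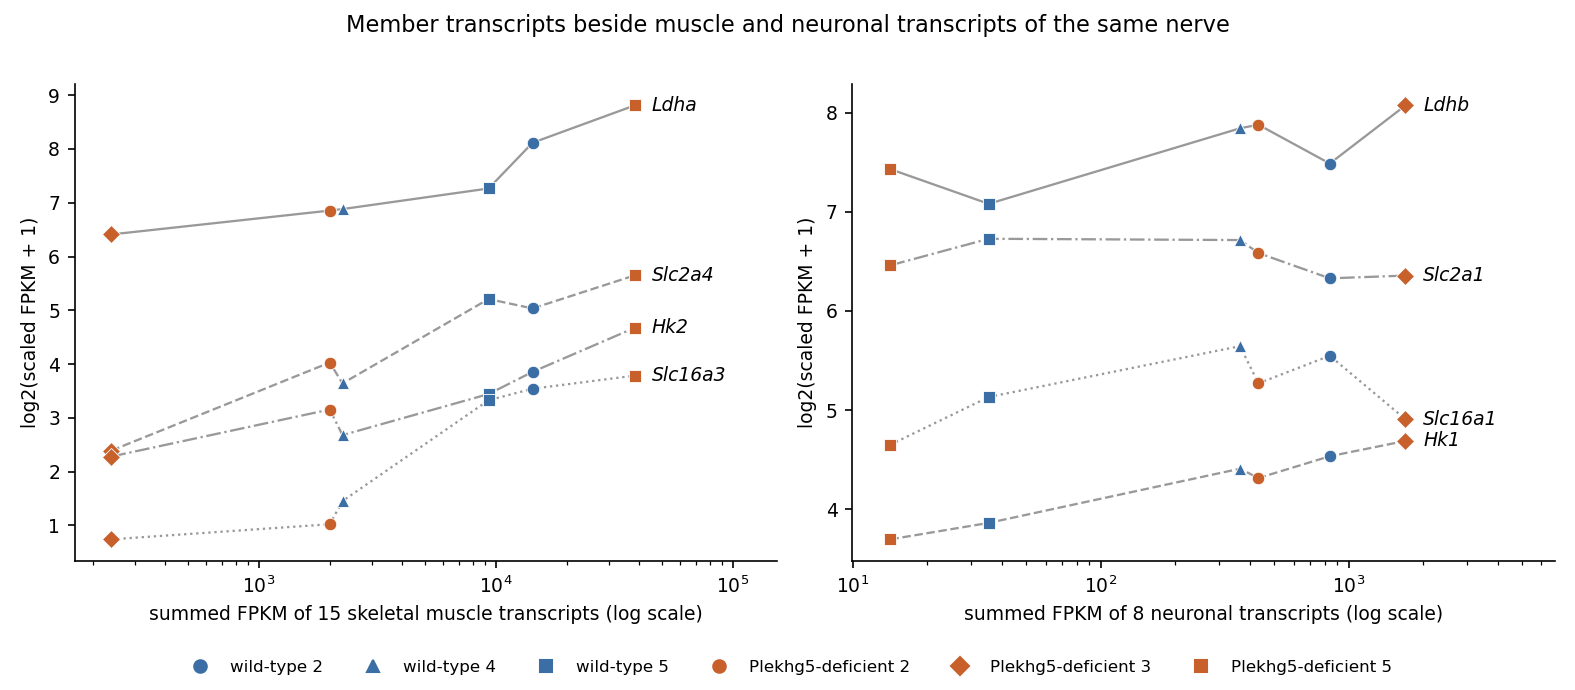
Levels of 8 of the genes as log2(scaled FPKM + 1) against the summed FPKM of 15 skeletal muscle transcripts (left) or 8 neuronal transcripts (right) in the same nerve, on log axes; each point is 1 nerve and lines join the nerves of 1 gene. By point values, Ldha and Slc16a3 climb at every step of the muscle sum, though the deposited intervals overlap at some steps. Slc2a1 stays nearly level across a neuronal sum from 14.2 to 1697 FPKM.

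Hk1 ranked the nerves almost as the summed neuronal markers and the summed repair and non-myelinating Schwann cell markers did. The sum of 8 neuronal markers was 840, 365 and 35.4 FPKM in the wild-type nerves 2, 4 and 5 against 433, 1697 and 14.2 in mutant nerves 2, 3 and 5. Hk1 differed from this order in 1 exchange, that of wild-type 4 and mutant 2. The summed repair and non-myelinating Schwann cell markers, at 70.3 to 194 FPKM, gave the same order as the neuronal sum. Single genes of that list differed. Gap43 gave the neuronal order, from 43.7 scaled FPKM in mutant 3 to 4.21 in mutant 5. Scn7a, the most abundant, gave another order, with 49.7 in mutant 2, 45.1 in mutant 3, 37.8 in wild-type 4 and 35.2 in wild-type 2. The neuronal sum moved far more than Hk1, which stayed between 11.97 and 24.8. Tubb3, a neuronal tubulin, spanned 2.88 to 449 scaled FPKM and Nefh, a neurofilament subunit, 2.36 to 515. The part of neuronal or Schwann cell RNA in the Hk1 level was not tested.

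The genes whose pattern over the 6 nerves was most like that of each member, by Pearson correlation of log2(FPKM + 1) among 14963 genes averaging 1 FPKM or more, are named as a description, since 6 nerves and a shared scaling make high values common. Slc2a4 was nearest to Ggnbp1 (0.998), Myh1 (0.994) and Tcap (0.994), the last pair being fast myosin heavy chain and the sarcomere protein telethonin. Slc16a3 was nearest to Mettl21c (0.993), Ehbp1l1 (0.992) and Slc38a4 (0.992), and Ldha to Bckdha (0.994), Mpc2 (0.993) and Hspb3 (0.992). For Hk2 they were the myogenic factor Myf6 (0.996), Nabp1 (0.992) and Ddo (0.990), and for Hk1 they included Snap25 and Susd4 (each 0.997), of which Snap25 acts in synaptic vesicle release. Snap25 was also one of the 8 neuronal markers. Slc2a1 was nearest to Maml1 (0.992), Gm5866 (0.990) and Klf3 (0.988) and Slc2a3 to Bbs7 (0.989), Psma5 (0.988) and Slc25a5 (0.986). Slc16a1 was nearest to Calr (0.992), Hyou1 (0.991) and Extl3 (0.980), the first pair being chaperones of the endoplasmic reticulum. Slc16a7 was close to 2700046G09Rik (0.991), and Ldhb was nearest to Col27a1 (0.997), Stambp (0.994) and Ero1l (0.989). Among the members themselves the closest were Ldha and Hk2, at 0.968.

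Promoter sequence is shown for Ldha and Slc16a3, which shared the muscle order, for Hk2, which differed from it by 1 exchange, and for Ldhb, which followed another order. The 250 bases before a start site annotated by RefSeq (GRCm38.p6) run 5′ to 3′ on the gene's strand, and capitals mark the core of the hypoxia response element, ACGTG or GCGTG, searched on both strands, where a match on the other strand reads CACGT or CACGC. The core overlaps the E-box CACGTG, which counts once on each strand. The sequences lie at chr7:46845554-46845803 on the plus strand (Ldha), chr6:82774455-82774704 on the minus strand (Hk2), chr11:120948817-120949066 on the plus strand (Slc16a3) and chr6:142507958-142508207 on the minus strand (Ldhb).
Ldha: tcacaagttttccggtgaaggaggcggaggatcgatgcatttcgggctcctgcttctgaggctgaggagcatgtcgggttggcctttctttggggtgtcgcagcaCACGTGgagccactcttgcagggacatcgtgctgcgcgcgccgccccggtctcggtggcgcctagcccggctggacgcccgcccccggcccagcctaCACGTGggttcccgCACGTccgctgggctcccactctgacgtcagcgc
Hk2: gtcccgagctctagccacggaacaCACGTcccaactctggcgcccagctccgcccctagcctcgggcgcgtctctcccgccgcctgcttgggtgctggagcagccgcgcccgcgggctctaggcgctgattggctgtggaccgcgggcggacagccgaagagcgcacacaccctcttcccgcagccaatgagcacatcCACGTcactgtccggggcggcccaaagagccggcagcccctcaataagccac
Slc16a3: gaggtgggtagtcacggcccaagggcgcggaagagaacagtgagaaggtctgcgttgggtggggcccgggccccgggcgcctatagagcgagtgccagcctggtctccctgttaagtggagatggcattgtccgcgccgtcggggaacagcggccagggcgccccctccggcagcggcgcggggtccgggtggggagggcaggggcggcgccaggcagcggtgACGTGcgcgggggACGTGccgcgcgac
Ldhb: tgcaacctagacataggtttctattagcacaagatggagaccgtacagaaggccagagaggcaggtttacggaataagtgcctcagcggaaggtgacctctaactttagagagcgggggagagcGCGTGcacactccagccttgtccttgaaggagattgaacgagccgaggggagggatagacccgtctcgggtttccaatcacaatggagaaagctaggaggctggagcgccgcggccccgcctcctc
The shown stretches hold 5 matches in Ldha, 2 in Hk2, 2 in Slc16a3 and 1 in Ldhb. RefSeq promoter windows of 300 bases, which add 50 bases after the start, were found for 7 of the 10 genes, 9 windows in all, and 8 of the 9 held the core, as did 43.8% of 32851 promoter windows of that length. The Ldha window at the start shown held 7 matches and a later Ldha start 2, Slc16a1 held 5, Slc2a1 2, and Hk1 5 at one start and 0 at another. At least 4 matches occurred in 3.86% of all windows. The myogenic E-box CAGCTG was in 0 of the 9 windows and in 16.3% of all windows. Windows for Slc2a3, Slc2a4 and Slc16a7 were not analysed here.

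**Figure D3:**
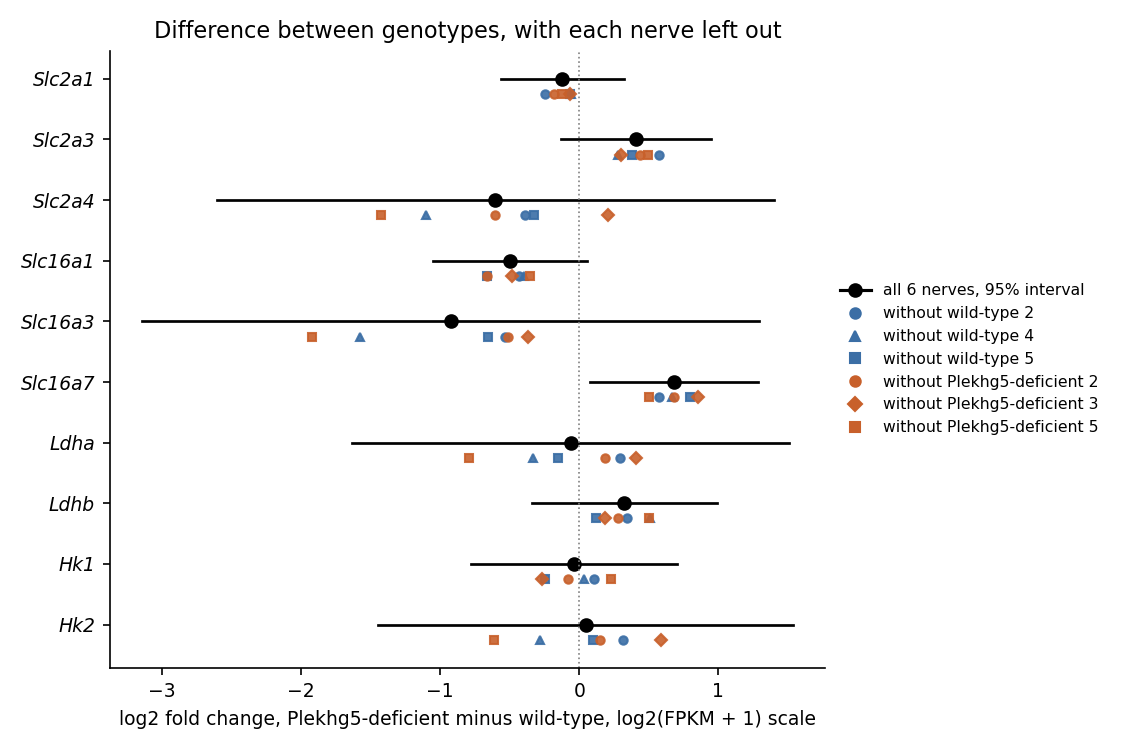
Log2 fold change of each gene (x axis, Plekhg5-deficient minus wild-type on the log2(FPKM + 1) scale) with all 6 nerves (black point, bar for the limma 95% interval) and with each nerve left out (coloured points, no interval). The bar of Slc16a7 alone stays clear of 0, and the points of Slc2a4, Ldha, Hk1 and Hk2 fall on both sides of 0.

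The precision of these comparisons differed widely between the genes. Standard errors of the log2 fold change ran from 0.19 for Slc2a1 to 0.93 for Slc16a3, beside a median of 0.222 over all genes. The direction was the same with each nerve left out in turn for Slc2a1, Slc2a3, Slc16a1, Slc16a3, Slc16a7 and Ldhb, and changed for Slc2a4, Ldha, Hk1 and Hk2. For the last 4, leaving out 1 mutant nerve moved the value by more than the whole difference. The same was true of Slc16a3, which went from -0.92 to -1.92 without mutant nerve 5.

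Shares within a nerve, which do not depend on the scaling between libraries, also overlapped between genotypes. Ldha made up 60.8%, 33.9% and 53.2% of the summed Ldha and Ldhb FPKM in the wild-type nerves 2, 4 and 5 against 32.9%, 23.9% and 72.3% in mutant nerves 2, 3 and 5. The nerve with the largest and the nerve with the smallest Ldha share were both Plekhg5-deficient, and the means of 49.3% ± 13.9 and 43.0% ± 25.8 did not differ beyond this spread (SD, n = 3 each, exact two-sided permutation test, p = 0.8, the smallest possible being 0.1). Hk2 made up 37.8%, 21.1% and 42.2% of both hexokinases in the wild-type nerves and 29.5%, 13.5% and 67.2% in the mutant nerves, listed in the same order (means 33.7% ± 11.1 and 36.7% ± 27.6, exact permutation p = 0.9). Hk2 thus exceeded Hk1 in mutant nerve 5 and in no other nerve.

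Slc16a1 was the main carrier of the 3 Slc16a genes in every nerve, at 77.6%, 91.0% and 72.4% of their sum in the wild-type nerves 2, 4 and 5 against 85.0%, 85.5% and 54.2% in mutant nerves 2, 3 and 5 (means 80.3% ± 9.60 and 74.9% ± 17.9, exact permutation p = 0.8). Slc2a1 was the main carrier of the 3 Slc2a genes in every nerve, at 69.0%, 88.3% and 73.0% in the wild-type nerves and 83.1%, 89.6% and 62.2% in the mutant nerves (means 76.8% ± 10.2 and 78.3% ± 14.3, exact permutation p = 0.9). Both shares were lowest in mutant nerve 5. Adjusted over the 4 shares by the Benjamini-Hochberg method, the exact permutation p was 0.9 for each, and none of the 4 shares differed beyond the spread between nerves.

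**Figure D4:**
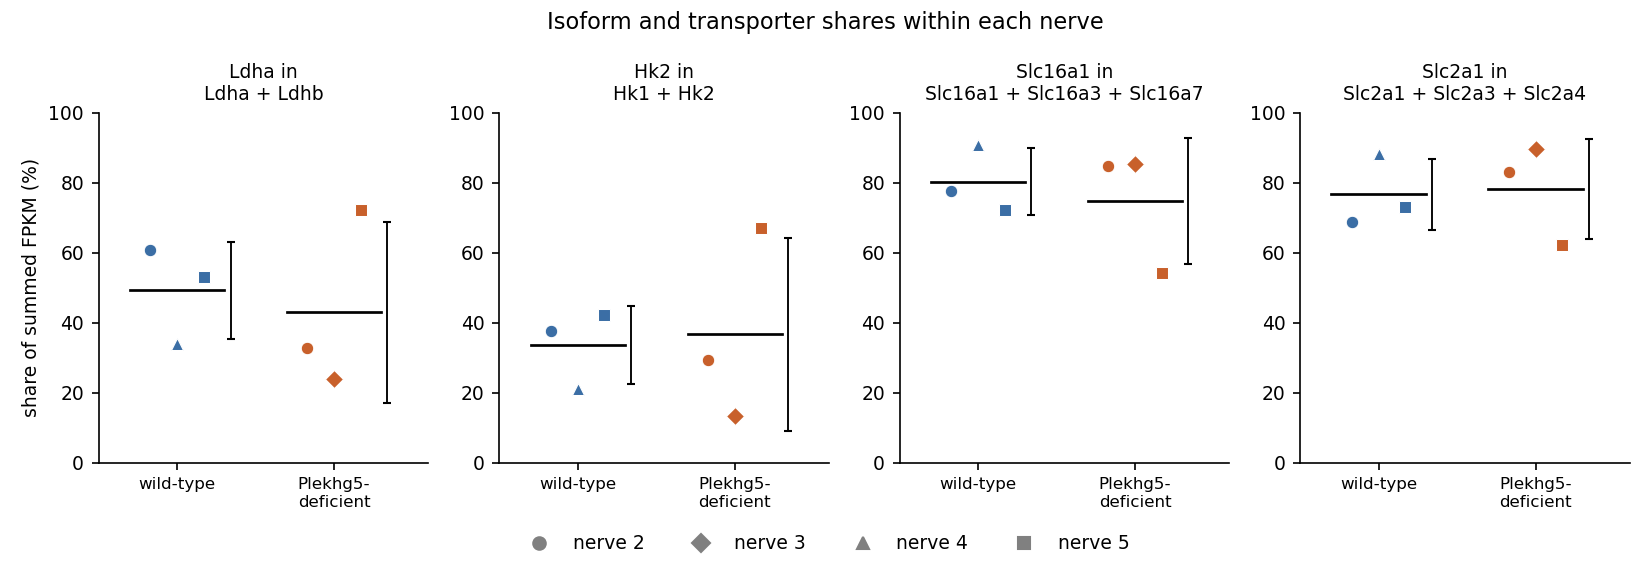
Share of 1 gene in the summed FPKM of its group in each nerve (percent, axis from 0 to 100), one panel per share; points are nerves, horizontal lines means and vertical bars the SD over 3 nerves. Mutant nerve 5 has the highest Ldha and Hk2 shares, 72.3% and 67.2%, and the lowest Slc16a1 and Slc2a1 shares, 54.2% and 62.2%.

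The other genes of these pathways were followed in 10 lists with 106 genes, of which 105 were in the tables and 96 were tested. No gene of these lists was called by the limma fit. At an unadjusted limma p under 0.05, 1 was higher and 1 lower in mutant nerves (2.41% and 2.69% of all genes), and 6.25% did not overlap between genotypes, beside 11.6% of all genes. List medians of the log2 fold change lay between -0.18 and 0.14.

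No other transporter gene was called. Of the other sugar carriers, 7 of 10 were tested, with a median of -0.18. Slc2a8, an intracellular carrier, was at 3.98 ± 0.160 and 3.70 ± 0.363 scaled FPKM and Slc2a6 at 3.09 ± 1.50 and 3.18 ± 1.91 (wild-type and mutant means, SD, n = 3 each). Slc2a13, a proton and myo-inositol carrier, was at 1.76, 2.84 and 1.45 in the wild-type nerves 2, 4 and 5 against 1.42, 1.38 and 0.658 in mutant nerves 2, 3 and 5 (log2 fold change -0.48, adjusted p = 0.974, limma). Its mutant nerves were all below its wild-type nerves, as held for 5.88% of all genes. Of the other monocarboxylate carriers and their chaperones, 11 of 15 were tested, with a median of -0.14. Bsg, the chaperone that brings MCT1 and MCT4 to the membrane, varied little, at 246, 233 and 222 scaled FPKM in the wild-type and 221, 214 and 242 in the mutant nerves. Emb, the chaperone of MCT2, varied from 6.84 in wild-type nerve 5 to 61.9 in mutant nerve 3, with both genotypes high and low. Slc16a9 was below every wild-type nerve in all 3 mutant nerves, as were 5.88% of all genes, at 12.9, 14.9 and 14.6 against 12.1, 8.07 and 10.1 (log2 fold change -0.46, SE 0.19, unadjusted p = 0.0487, adjusted p = 0.972, limma).

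Enzymes on either side of the hexokinase and lactate dehydrogenase steps also failed to pass. All 18 enzymes of glycolysis after hexokinase were tested, with a median of -0.073. Their most abundant transcripts were Aldoa, Eno3 and Pgam2, of which Eno3 and Pgam2 are the muscle forms of enolase and phosphoglycerate mutase. Eno3 spanned 6.73 to 611 scaled FPKM and Pgam2 4.43 to 594, both lowest in mutant nerve 3 and highest in mutant nerve 5, as for Ldha. Aldoa reached 5642 in mutant nerve 5 against 901 to 2510 elsewhere. Eno1, the common enolase, was at 118, 89.8 and 53.3 in the wild-type and 47.0, 47.5 and 67.3 in the mutant nerves (log2 fold change -0.63, SE 0.32, adjusted p = 0.974). Of the other glucose-phosphorylating enzymes, 3 of 4 were tested (median -0.058), led by Adpgk at 7.45 ± 0.749 and 8.50 ± 1.47, with Hk3 at most 0.947 in any nerve. Of the other lactate dehydrogenases, 1 of 3 was tested, Ldhd, the enzyme of D-lactate, at 4.74 ± 1.21 and 4.42 ± 1.04, and Ldhc, the form of testis, was listed at 0 in all libraries.

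Among 14 genes of pyruvate entry into mitochondria, all tested, the median was 0.14. The pyruvate carrier subunits Mpc1 and Mpc2 were at 90.2 ± 17.0 and 107 ± 28.3 scaled FPKM in wild-type nerves and at 121 ± 53.1 and 108 ± 53.1 in mutant nerves (SD, n = 3 each), and Dlat, a pyruvate dehydrogenase subunit, had a log2 fold change of 0.41 (SE 0.32, adjusted p = 0.974). Glycogen metabolism gave a median of -0.038 over 12 genes. Pygm, the glycogen phosphorylase of muscle, spanned 8.86 to 661 between mutant nerves 3 and 5, while Gyg, which primes glycogen, spanned 46.7 to 176. The 7 genes of the pentose phosphate pathway had a median of -0.070, with G6pdx, its first enzyme, at 35.9 ± 3.35 and 37.5 ± 5.62. The 13 glycolytic regulators had a median of 0.080, with Txnip, which restrains glucose uptake, at 277 in mutant nerve 3 and 980 in nerve 5 and between 459 and 575 in the other 4 nerves.

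Ankrd37 had the smallest p of any gene in the lists. It belongs to 10 targets of hypoxia-inducible factors outside glucose metabolism, which had a median of 0.038. It was at 3.06, 1.53 and 2.09 scaled FPKM in the wild-type nerves 2, 4 and 5 against 6.10, 5.19 and 6.75 in mutant nerves 2, 3 and 5. All mutant nerves lay above all wild-type nerves, as held for 5.69% of all genes tested. The log2 fold change was 1.14 (SE 0.24, 95% interval 0.58 to 1.70, unadjusted p = 0.00217, adjusted p = 0.512, limma), so that Ankrd37 did not pass over all genes. Bnip3 of the same list was at 91.7, 66.1 and 111 and at 103, 107 and 232, with overlap (adjusted p = 0.974), and the most abundant gene, Ndrg1, at 819 ± 222 and 804 ± 228 (SD, n = 3 each).

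**Figure D5:**
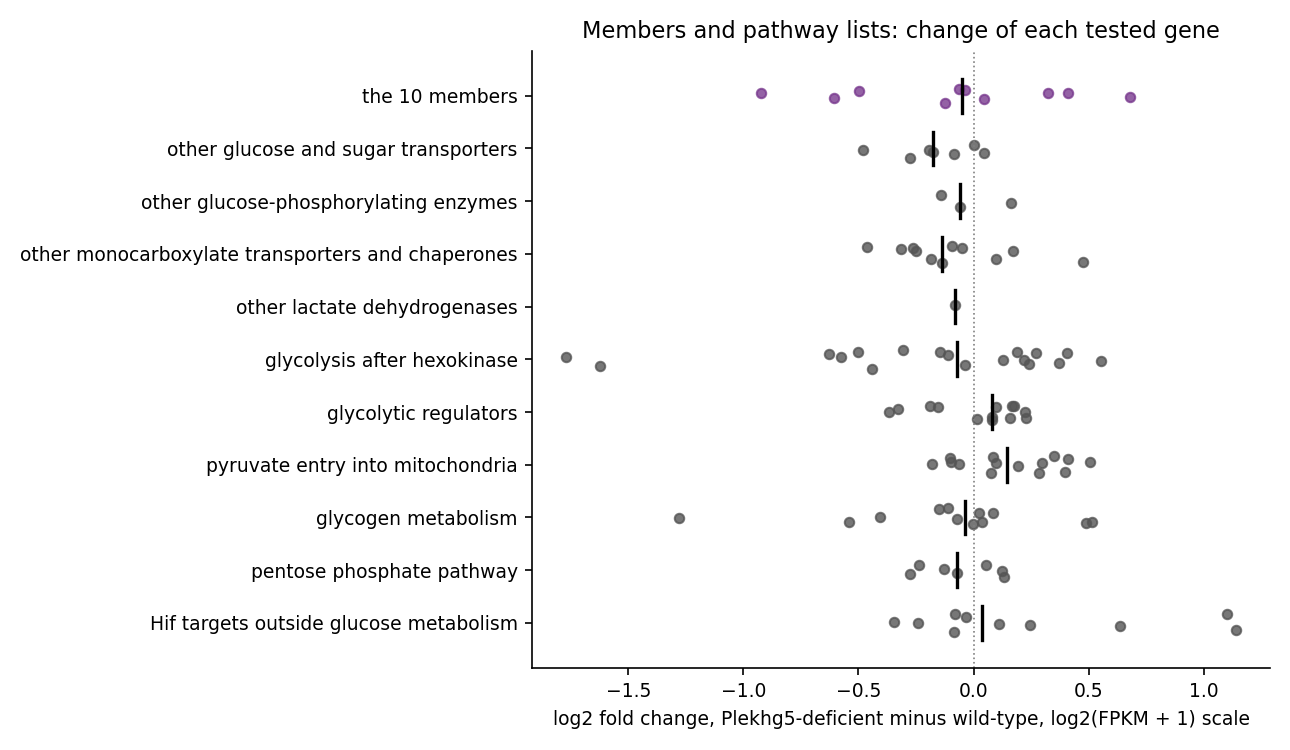
Log2 fold change (x axis, Plekhg5-deficient minus wild-type on the log2(FPKM + 1) scale) of each tested gene, for the 10 members and the 10 pathway lists (rows); each point is a gene and the black bar is the median of the row. Medians lie between -0.18 and 0.14, and the points farthest below 0 are Pgam2, Eno3 and Pygm.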

How the data were processed

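RNA was extracted from whole sciatic nerves, libraries were made with a Lexogen SENSE mRNA kit and sequenced on an Illumina NextSeq, with 1 library per animal, 3 per genotype. The authors trimmed reads with Trim Galore 0.4.0, aligned them to GRCm38 with STAR 2.5.0a and used Cufflinks 2.2.1, separately for each library, to obtain the deposited FPKM and their 95% intervals per gene. The sources used here do not give the annotation release, the strand setting or the read depth, and no count was analysed here, so the precision is known only through the deposited intervals and the spread between nerves.

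FPKM of the 19 identifiers listed more than once were summed, and libraries were divided by median-of-ratios factors. Values are sums or means of these scaled FPKM throughout. Genes averaging 0.1 FPKM or more in one genotype or the other, the limit for expressed genes in the study's methods, entered a limma 3.58.1 fit (R 4.3.3) of log2(FPKM + 1) on genotype alone, with trended variance. P-values were adjusted over 21285 genes by the Benjamini-Hochberg method. A fold change on this scale understates the change of low genes. Shares were compared with exact permutation tests (scipy 1.17.1), and figures were drawn with matplotlib 3.10.9. The fit was tested on simulated data.

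The 10 genes, the 10 pathway lists and the 12 cell type lists were chosen with earlier results of these data known. Named beside the 10 genes were Plekhg5 and, from each pathway list, the 3 genes with the highest mean and the gene with the smallest p. Also named were the 3 genes most similar to each of the 10 genes, and the 2 most abundant genes of each cell type list. Of the latter, those of the muscle, adipocyte, neuronal and repair and non-myelinating Schwann cell lists are printed. Egln3 was named in addition, since the study lists it as higher in mutant nerves. Some genes that this rule names are not reported here. Tigar, Epb42 and Adgre1 were found under older names. Ldhal6b and Ahsp were not matched and were not used here. Alternatives were other pseudocounts, minimum levels, scalings and variance models, array weights, a replicate block and leaving out libraries.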

Additional observations from a re-analysis of the deposited data

How the results depend on the processing

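None of the 10 genes and none of the pathway genes was called under any of the 17 alternatives run. Slc16a7 stayed higher in mutant nerves (log2 fold change 0.50 to 0.85), as did Slc2a3 (0.17 to 0.57) and Ldhb (0.12 to 0.51), and Slc16a1 (-0.66 to -0.36), Slc16a3 (-1.92 to -0.37) and Slc2a1 (-0.29 to -0.0060) stayed lower. With 1 nerve left out, Hk1 ranged from -0.27 to 0.23, Hk2 from -0.61 to 0.59, Ldha from -0.79 to 0.41 and Slc2a4 from -1.43 to 0.21. Without both nerves numbered 5, Hk1 was 0.016, Hk2 -0.57, the Hk2 share difference -7.95 percentage points and the Slc16a1 share difference 0.947. Array weights gave -0.095 for Hk2 and unscaled FPKM gave -0.12. The share differences ranged with 1 nerve left out from -20.9 to 3.31 percentage points for Ldha, -12.2 to 14.7 for Hk2, -10.8 to 4.92 for Slc16a1 and -4.13 to 9.58 for Slc2a1. The cause of these changes was not tested.

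Nerves share only the numbers 2 and 5, whose deviations from the genotype means correlated at 0.073 and 0.580. The value for the nerves numbered 5 was the highest of any wild-type and mutant pair, and nerves of unlike number reached 0.457. The labels name no pairs, so the main fit did not take the numbers as pairs. With the replicate block, Ldha was 0.14, Slc16a7 0.84, and 0 genes of the table were called higher and 0 lower. Over the whole table, 6 genes were called higher and 2 lower. The lower count was 1 with a pseudocount of 0.1, with a minimum of 1 FPKM and with robust variance, and 0 without both nerves numbered 5. With no minimum 2 were higher and 0 lower, and with array weights 14 and 8. With 1 nerve left out, 0 to 5 were higher and 0 lower. Plekhg5 itself was lower in all 17 alternatives (-4.41 to -2.14) and was called in 8 of them, and its adjusted p ranged from 0.00530 to 0.892. With 3 nerves per genotype and no read depth, differences smaller than the intervals given beside each gene could not be resolved.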

Other observations

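The ratio of Slc16a1 to Slc16a7, chosen after the values of both were seen and therefore given without a test, was 17.8, 15.7 and 8.58 in the wild-type nerves 2, 4 and 5 against 6.69, 6.84 and 3.16 in mutant nerves 2, 3 and 5, with means of 14.0 ± 4.85 and 5.56 ± 2.08 (SD, n = 3 each). It does not depend on the scaling between libraries. All 3 mutant nerves were below all 3 wild-type nerves. This direction follows from the separate values of Slc16a1 and Slc16a7 and adds no support to them. Slc16a1 stayed far above Slc16a7 in every nerve.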
